A study of Mus musculus with 6 samples.

Results

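Gap43, Basp1, Marcks and Marcksl1 encode membrane-bound proteins of the growth cone, and Stmn1, Stmn2, Stmn3 and Stmn4 encode the stathmins. These 8 genes were taken by name, 8 of the 16415 genes listed for mouse trigeminal ganglion, the sensory ganglion of the head. The list was chosen by name with measured values in view, namely the fold changes of this same comparison. Their fold changes and adjusted p-values are therefore a description and no independent support of one another.

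The samples are 3 bulk messenger RNA libraries labelled SETDB2-up and 3 labelled NC-up, all with the genotype WT. The labels do not spell out the treatment names, and no age, sex, strain or way of delivery was used here. Nothing ties the libraries of a group to separate animals, and p-values therefore measure only the spread between these libraries, which may be technical. The deposited values are read counts that the authors had scaled with 1 factor in each library, called normalised reads here, and between 19334997 and 23501386 whole reads per library were recovered from them. Setdb2, whose name the treatment label carries, had 113, 97.6 and 104 normalised reads in the SETDB2-up libraries and 69.9, 58.4 and 71.5 in the NC-up libraries (limma adjusted p = 0.0253).

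Library 1 and library 2 of the SETDB2-up group stood apart from the other 4 by liver transcripts. Albumin (Alb) had 1673, 3769 and 11.6 normalised reads in SETDB2-up libraries 1 to 3 and was at 0 in all 3 NC-up libraries. The 10 tested genes of a 15-gene liver list summed to 2790.1, 6381 and 137 normalised reads in the SETDB2-up libraries and to 98.5, 73.7 and 81.3 in the NC-up libraries. Each fold change is therefore also given with SETDB2-up library 3 alone against the 3 NC-up libraries, where the spread of the single library is assumed to be that of NC-up. How the liver transcripts bear on the 8 genes was not otherwise tested. SETDB2-up library 3 in turn had the highest sums of pituitary and of central nervous tissue markers of all libraries, as given below.

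GAP-43 and BASP1 (also called CAP-23) are abundant proteins on the inner face of the axonal and growth cone membrane, and MARCKS and MARCKSL1 share their way of working. They are held there by fatty acids, bind calmodulin or acidic phospholipids, and are substrates of protein kinase C. Stathmins bind tubulin dimers and favour the shortening of microtubules until kinases phosphorylate them. In sensory neurons both families are known from axon growth and from regrowth after injury.

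The coding sequences of the 8 genes differ widely in base composition. Coding GC content, the share of G and C in the longest coding transcript's coding sequence, was 75.4% in Marcks and 74.2% in Basp1. It was 62.7% in Marcksl1, 57.3% in Stmn3, 55.6% in Gap43, 53.3% in Stmn1, 51.5% in Stmn2 and 51.0% in Stmn4. Among all genes with a coding sequence in the reference, Marcks stood at percentile 99.97 and Basp1 at percentile 99.9. The lines that follow show the coding window of 120 bases with the most G and C in these and in 2 less GC-rich members, in sense orientation, 5′ to 3′, with G and C in capitals. They are read from the GENCODE M21 transcripts of GRCm38, at chr15:25364494-25364613 (minus strand, exon 2 of 2) for Basp1, chr10:37136351-37136470 (minus strand, exon 2 of 2) for Marcks, chr16:42292007-42292126 (minus strand, exon 2 of 3) for Gap43 and chr3:8554793-8554912 (plus strand, exon 4 of 5) for Stmn2.
Basp1: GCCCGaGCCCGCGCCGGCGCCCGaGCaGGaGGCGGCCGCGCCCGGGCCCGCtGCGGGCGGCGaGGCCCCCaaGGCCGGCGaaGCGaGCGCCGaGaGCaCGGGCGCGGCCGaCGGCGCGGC
Marcks: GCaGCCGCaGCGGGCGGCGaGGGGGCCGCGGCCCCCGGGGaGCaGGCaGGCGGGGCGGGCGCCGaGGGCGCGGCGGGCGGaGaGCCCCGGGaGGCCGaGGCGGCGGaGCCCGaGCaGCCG
Gap43: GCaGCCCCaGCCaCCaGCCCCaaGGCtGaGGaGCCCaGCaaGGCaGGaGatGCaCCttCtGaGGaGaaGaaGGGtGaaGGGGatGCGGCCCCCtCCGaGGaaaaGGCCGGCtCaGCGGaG
Stmn2: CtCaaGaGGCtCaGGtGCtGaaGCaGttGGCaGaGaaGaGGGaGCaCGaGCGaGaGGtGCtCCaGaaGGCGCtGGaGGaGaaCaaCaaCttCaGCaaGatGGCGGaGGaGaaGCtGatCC
G and C made up 105 of the 120 bases in Basp1 (87.5%), 106 in Marcks (88.3%), 80 in Gap43 (66.7%) and 69 in Stmn2 (57.5%). The Basp1 coding sequence of 226 codons lies in a single exon. In Marcks the 309 codons are followed by a 3′ untranslated region of 2733 bases with a GC content of only 34.3%. The whole Marcks transcript had a GC content of 45.1%, and the Basp1 transcript 56.4%.

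Among the membrane proteins, Basp1 fell by 45.6% and Marcks fell by 42.5% in the SETDB2-up libraries, while Gap43 had nearly the same level in both groups. Marcksl1 averaged lower in SETDB2-up but its groups overlapped. Levels here come from whole ganglia, so fewer cells of a type and less RNA per cell cannot be told apart.

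Basp1, a myristoylated membrane protein that binds calmodulin and gathers phosphoinositides (gene 70350, chr15:25363277-25413764, minus strand, GRCm38), had 3637, 4108 and 3837 normalised reads in SETDB2-up libraries 1 to 3. In NC-up libraries 1 to 3 it had 6527, 7490.2 and 7283. The groups lay far apart, and the highest SETDB2-up library was still well below the lowest NC-up library. The means were 3861 ± 237 in SETDB2-up and 7100.1 ± 507 in NC-up (SD, n = 3 each). The difference was a log2 fold change of -0.88 ± 0.06 (SE, with adjusted p = 5.44e-08 by limma), the 6th smallest p-value of the 16387 genes tested. Only 259 genes (1.58%) had as low a log2 fold change or a lower one. With SETDB2-up library 3 alone it was -0.89 (limma adjusted p = 1.32e-07), nearly the same as with all 3.

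Marcks, the myristoylated substrate that releases phosphoinositides and actin when protein kinase C phosphorylates it (gene 17118, chr10:37133243-37138926, minus strand), had 2066, 2169.5 and 1537 normalised reads in SETDB2-up. In NC-up it had 3522, 3407 and 3031. Again no library of one group reached the range of the other, and SETDB2-up library 3 was the lowest of all. The means were 1924 ± 339 in SETDB2-up and 3320.0 ± 257 in NC-up (SD, n = 3 each), with a log2 fold change of -0.80 ± 0.10 (SE, with adjusted p = 2.56e-05 by limma). As low a value or a lower one was seen in 318 genes (1.94%). With SETDB2-up library 3 alone the fold change was -1.11 (limma adjusted p = 3.51e-08).

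Marcksl1, the smaller relative of Marcks (gene 17357, chr4:129513581-129515981, plus strand), was read much less often, at 411, 343 and 485 normalised reads in SETDB2-up and 555, 409 and 574 in NC-up. The highest SETDB2-up library lay above the lowest NC-up library. The means were 413 ± 70.9 in SETDB2-up and 513 ± 90.3 in NC-up (SD, n = 3 each), and the log2 fold change of -0.31 ± 0.13 did not pass the test (SE, with adjusted p = 0.115 by limma). It passed without NC-up library 2 (-0.46, limma adjusted p = 0.0304) and without SETDB2-up library 3 (-0.43, limma adjusted p = 0.0202), and it was -0.07 (limma adjusted p = 0.928) with SETDB2-up library 3 alone. A processed pseudogene of Marcksl1 and one of Stmn1 are annotated in the reference, and the sources used here do not give how reads shared with them were assigned.

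Gap43, the palmitoylated growth cone protein that binds calmodulin through an IQ motif (gene 14432, chr16:42248552-42340651, minus strand), had 3132, 2927 and 2681 normalised reads in SETDB2-up. Its NC-up values of 3195, 2925 and 2803 covered nearly the same range. The means were 2914 ± 226 in SETDB2-up and 2974 ± 201 in NC-up (SD, n = 3 each), which gave a log2 fold change of -0.03 ± 0.07 (SE, with adjusted p = 0.801 by limma). Its sign was positive after the coding GC correction (0.02), without NC-up library 1 (0.02) and without SETDB2-up library 3 (0.03), and the fold change was -0.15 (limma adjusted p = 0.463) with SETDB2-up library 3 alone.

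Among the stathmins, Stmn2 rose by 13.5% in the SETDB2-up libraries, and the differences of Stmn1, Stmn3 and Stmn4 did not pass the test. In Stmn1 and in Stmn2 the groups did not overlap, with SETDB2-up above. Stmn4 averaged lower in SETDB2-up, through library 1 and library 2 of that group.

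Stmn1, the cytosolic stathmin that is also made by dividing cells (gene 16765, chr4:134468320-134473843, plus strand), had 5794, 5837 and 6634 normalised reads in SETDB2-up and 5483, 5337 and 5486 in NC-up. All SETDB2-up libraries lay above all NC-up libraries, and library 3 stood out as the highest. The means were 6088 ± 473 in SETDB2-up and 5435 ± 85.0 in NC-up (SD, n = 3 each), with a log2 fold change of 0.16 ± 0.06 (SE, with adjusted p = 0.0718 by limma). DESeq2 placed the same difference just inside the threshold (0.16, DESeq2 adjusted p = 0.0459). With SETDB2-up library 3 alone it was 0.29 (limma adjusted p = 0.0204).

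Stmn2, or SCG10, the palmitoylated stathmin of axons whose transcript depends on TDP-43 in human neurons (gene 20257, chr3:8509527-8561604, plus strand), had 18355, 17798 and 17480.0 normalised reads in SETDB2-up and 16012, 14906 and 16349.7 in NC-up. The lowest SETDB2-up library was above the highest NC-up library. The means were 17877 ± 443 in SETDB2-up and 15756 ± 755 in NC-up (SD, n = 3 each), which gave a log2 fold change of 0.18 ± 0.05 (SE, with adjusted p = 0.0279 by limma). Stmn2 no longer passed without NC-up library 1 (0.20, limma adjusted p = 0.0573), NC-up library 2 (0.14, limma adjusted p = 0.18), SETDB2-up library 1 (0.16, limma adjusted p = 0.103) or SETDB2-up library 2 (0.19, limma adjusted p = 0.0701). With SETDB2-up library 3 alone it was 0.15 (limma adjusted p = 0.277).

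Stmn3, or SCLIP, a neuronal stathmin tied to Golgi and growth cone membranes (gene 20262, chr2:181306459-181314500, minus strand), had 17153, 16356 and 19971 normalised reads in SETDB2-up and 16711, 16115 and 17560.0 in NC-up. The groups overlapped except for SETDB2-up library 3, which was the highest of the 6. The means were 17827 ± 1899 in SETDB2-up and 16795 ± 726 in NC-up (SD, n = 3 each), with a log2 fold change of 0.08 ± 0.07 (SE, with adjusted p = 0.437 by limma). Without SETDB2-up library 3 it was -0.00 (limma adjusted p = 0.976), and with that library alone 0.25 (limma adjusted p = 0.0313).

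Stmn4, or RB3, the third of the neuronal stathmins (gene 56471, chr14:66344210-66361680, plus strand), had 557, 502 and 750.5 normalised reads in SETDB2-up and 752, 724 and 730.3 in NC-up. SETDB2-up libraries 1 and 2, the ones with the liver transcripts, lay below every NC-up library, whereas library 3 lay among them. The means were 603 ± 130.4 in SETDB2-up and 735 ± 14.8 in NC-up (SD, n = 3 each), with a log2 fold change of -0.31 ± 0.11 (SE, with adjusted p = 0.0659 by limma). Without SETDB2-up library 3 it was -0.47 (limma adjusted p = 0.000662), and with that library alone 0.03 (limma adjusted p = 0.961).

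**Figure D1:**
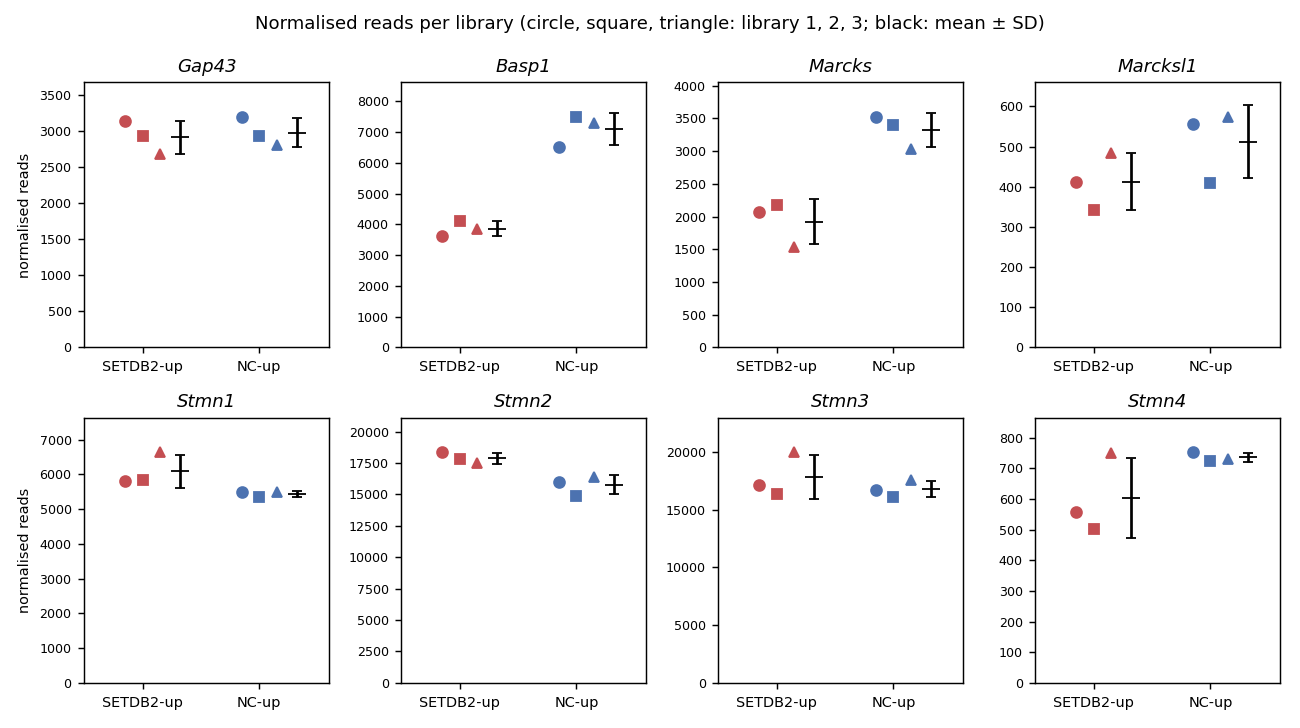
Normalised reads of the 8 genes (vertical axes, from 0) in each SETDB2-up library (red) and each NC-up library (blue), with the mean and SD of each group in black. Basp1 and Marcks show a wide gap between the groups, whereas SETDB2-up library 3 (triangle) sits away from libraries 1 and 2 in Stmn1, Stmn3 and Stmn4.

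Counted together, 3 of the 8 genes passed the test, 1 higher (Stmn2) and 2 lower (Basp1 and Marcks), beside 16.4% of the 16387 genes tested in either direction, 7.71% higher and 8.71% lower. All 8 passed the filter on low values. In 4 of the 8 the groups did not overlap, beside 33.3% of all genes tested. Of these 4, Stmn1 and Stmn2 had all SETDB2-up libraries above (16.8% of all genes) and Basp1 and Marcks had them all below (16.4% of all genes). The members' median log2 fold change was -0.17 and that of all genes tested was 0.00. Against NC-up, SETDB2-up library 3 alone gave 2 called higher (Stmn1 and Stmn3) and 2 lower (Basp1 and Marcks). Over all genes that fit called 3.3%, 1.13% higher and 2.17% lower. SETDB2-up library 3 lay farthest from its group's median in 6 of the 8 genes. No other listed gene overlaps any of the 8 on either strand.

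Across all tested genes, the fold change moved with coding GC content, and Basp1 and Marcks lie at its upper end. Of the 104 genes with a coding GC content of 70% or more, 56 fell (53.8%) and 0 rose by limma, and the median log2 fold change was -0.42. DESeq2 and limma-voom gave these counts too, edgeR called 57 lower and 0 higher, and an unadjusted limma p under 0.05 was reached by 73 lower and 0 higher. In the range from 50% to 55%, which holds Stmn1, Stmn2 and Stmn4, 144 of 4049 genes fell (3.56%) and 220 rose (5.43%), with a median of 0.03. In the range from 55% to 60%, which holds Gap43 and Stmn3, 444 of 3875 genes fell (11.5%) and 31 rose, with a median of -0.10. Marcksl1 lies between 60% and 65%, where 410 of 1457 genes fell (28.1%) and the median was -0.20, against its own -0.31. Basp1 was low even among the most GC-rich genes, as 13 of the 104 had a log2 fold change as low as its own or lower. Against NC-up, SETDB2-up library 3 alone had 25 of the 104 most GC-rich genes called lower, with a median of -0.33. These bins are a description, and what moves the fold change along coding GC content was not tested.

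**Figure D2:**
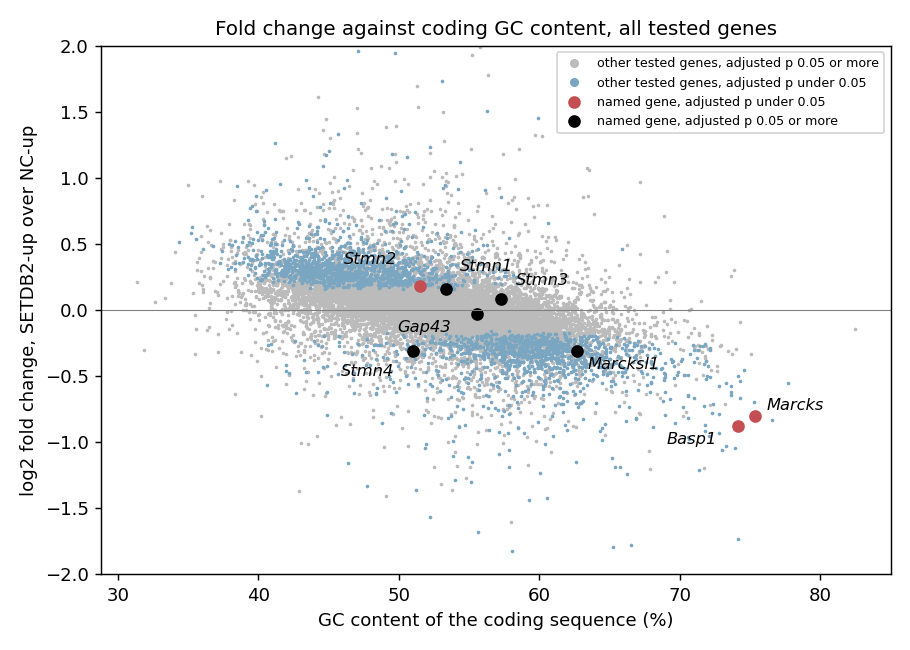
Log2 fold change, SETDB2-up over NC-up (vertical axis), against the GC content of the coding sequence in percent (horizontal axis) for the tested genes with a coding sequence in the reference. The 8 genes are labelled, 29 genes lie outside the plotted range, and the cloud slopes down to the right, where Basp1 and Marcks lie.

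When the trend with coding GC content was removed from each library, Basp1 still fell, with a log2 fold change of -0.42 ± 0.06 (SE, with adjusted p = 0.000304 by limma). Marcks was at -0.32 ± 0.12 and no longer passed (SE, with adjusted p = 0.127 by limma). Stmn2 was at 0.14 and no longer passed either (limma adjusted p = 0.107), which leaves 1 of the 8 genes called, and it was lower. Of all 14452 genes in that fit 5.42% were called, 2.2% higher and 3.22% lower. Before this correction, the 26 tested genes with a coding GC content of at least 73%, Basp1 and Marcks among them, had a median of -0.56. How fully the trend was removed at that end was not tested in these data. Removing the trend with the GC content of the whole transcript instead gave other values. Marcks was then lower, at -0.92 (limma adjusted p = 1.09e-05), Basp1 was at -0.74 (limma adjusted p = 6.58e-07), and Stmn2 was at 0.00 (limma adjusted p = 0.981). Stmn3 was at 0.24 in that fit and passed the test (limma adjusted p = 0.0159). With 1 member higher and 2 lower, the fit called 6.19% of all its 15516 genes, 2.18% higher and 4.01% lower. It used the GC content of each gene's longest transcript. For Stmn2 that is a retained-intron model of 3413 bases with a GC content of 41.3%, against 46.1% in the protein-coding model of 2073 bases. The transcript correction with the protein-coding model was not run.

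**Figure D3:**
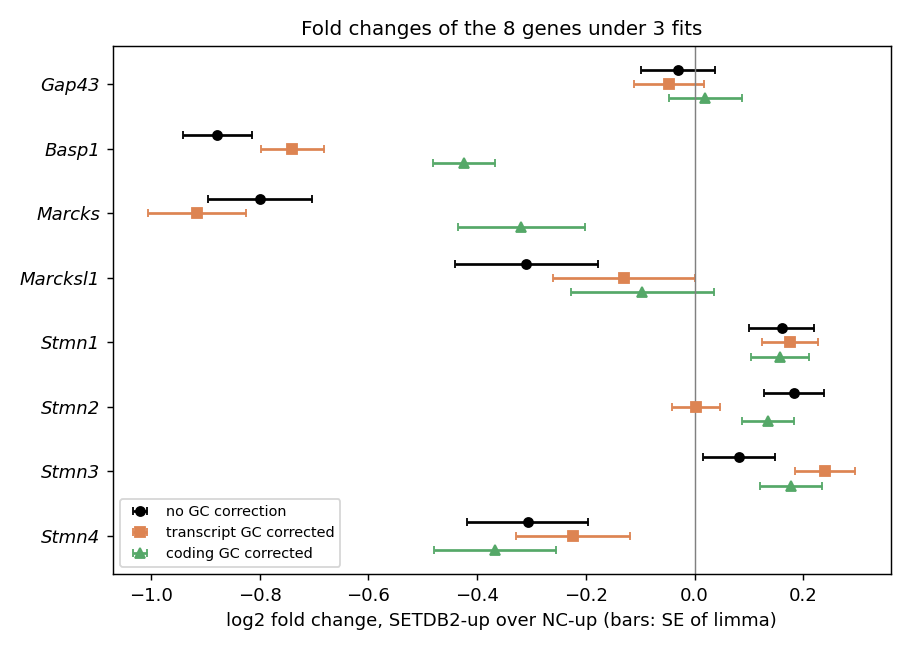
Log2 fold changes, SETDB2-up over NC-up (horizontal axis), of the 8 genes with no GC correction (black), after the transcript GC correction (orange) and after the coding GC correction (green), with limma standard errors as bars. Basp1 and Marcks lie nearest to 0 with the coding GC correction, at -0.42 and -0.32.

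Compared per length of transcript, in reads scaled by the longest transcript's length and library size (RPKM, from recovered reads), Stmn3 had the highest level of the 8. Its mean was 757 ± 73.4 RPKM in SETDB2-up and 713 ± 29.2 in NC-up (SD, n = 3 each). Stmn1 followed at 277 ± 18.4 RPKM in SETDB2-up and 247 ± 5.33 in NC-up, and Stmn2 at 253 ± 9.29 in SETDB2-up and 223 ± 11.1 in NC-up. The order of these neighbours depends on the length used, because the longest Stmn2 model of 3413 bases is a retained-intron transcript. With the protein-coding model of 2073 bases Stmn2 stood at 416 ± 15.3 RPKM in SETDB2-up and 367 ± 18.3 in NC-up, above Stmn1.

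Basp1 and Gap43 came next and overlapped in SETDB2-up but not in NC-up. Basp1 averaged 100.5 ± 5.82 RPKM in SETDB2-up and 185 ± 11.5 in NC-up, and Gap43 99.1 ± 8.86 in SETDB2-up and 101 ± 7.94 in NC-up (SD, n = 3 each). Below them, Marcks averaged 23.0 ± 4.24 RPKM in SETDB2-up and 39.6 ± 3.42 in NC-up. Stmn4 averaged 21.4 ± 4.40 RPKM in SETDB2-up and 26.1 ± 0.794 in NC-up, and Marcksl1 was last at 12.4 ± 2.04 in SETDB2-up and 15.4 ± 2.74 in NC-up. In SETDB2-up, neighbours in this order whose libraries overlapped were Basp1 with Gap43 and Marcks with Stmn4. In NC-up no neighbours overlapped.

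Within the membrane protein family, the shares of Basp1, Gap43 and Marcks did not overlap between the groups. With the 4 membrane proteins set to 100% of RPKM, Basp1 held 42.8 ± 2.66% in SETDB2-up and 54.2 ± 3.30% in NC-up, and Gap43 held 42.1 ± 2.23% in SETDB2-up and 29.7 ± 2.21% in NC-up (SD, n = 3 each). Marcks held 10.3%, 10.7% and 8.19% in SETDB2-up libraries 1 to 3 and 12.5%, 11.7% and 10.7% in NC-up libraries 1 to 3, so that its groups were close at their edge. The ratio of Basp1 to Gap43 was 0.889, 1.07 and 1.10 in SETDB2-up libraries 1 to 3 and 1.56, 1.96 and 1.99 in NC-up libraries 1 to 3. Every SETDB2-up library was thus near parity and every NC-up library well above it. The ratio of Basp1 to Marcks overlapped between the groups, at 3.84, 4.13 and 5.45 in SETDB2-up and 4.04, 4.80 and 5.24 in NC-up. These ratios rest on the same values as the fold changes and are no further evidence.

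Among the stathmins, with protein-coding lengths, Stmn3 held 51.4 ± 1.94% of the family in SETDB2-up and 52.7 ± 0.482% in NC-up, and Stmn2 held 28.4 ± 2.32% in SETDB2-up and 27.1 ± 0.374% in NC-up (SD, n = 3 each). Stmn1 held 18.8 ± 0.433% in SETDB2-up and 18.3 ± 0.444% in NC-up. Stmn4 was the smallest share, at 1.44 ± 0.210% in SETDB2-up and 1.93 ± 0.0706% in NC-up. The ratio of Stmn4 to Stmn2 was 0.0462, 0.0430 and 0.0654 in SETDB2-up libraries 1 to 3 and 0.0716, 0.0740 and 0.0680 in NC-up libraries 1 to 3, so that only SETDB2-up library 3 came near the NC-up values.

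**Figure D4:**
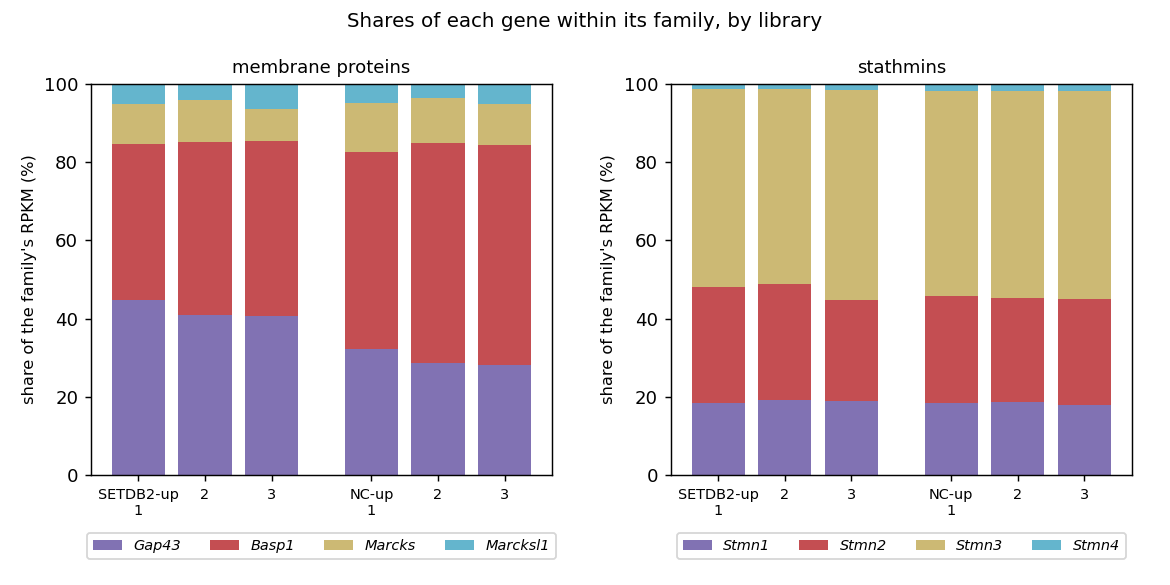
Share of each gene in the summed RPKM of its family in percent (vertical axis), with 1 bar per library. Basp1 takes 39.7% to 44.6% of the membrane protein family in the SETDB2-up libraries and 50.4% to 56.1% in the NC-up libraries, while the stathmin bars differ little.

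Partner genes were followed through 7 lists. Some lists hold genes whose products modify, bind or regulate the membrane proteins or stathmins, or act on their transcripts. The lists of growth cone cytoskeleton and adhesion (38 tested genes) and of axon regeneration markers (11 tested genes) were not limited to such genes. Together the 7 lists hold 119 genes, of which 112 were tested. Of these, 10 rose and 21 fell, together 27.7% beside 16.4% of all genes tested, and the median log2 fold change was 0.03 beside 0.00 for all genes. The genes that rose had a median coding GC content of 48.1% and those that fell one of 57.5%. After the coding GC correction 3 were higher and 11 lower, beside 2.2% and 3.22% of all genes in that fit, and after the transcript correction 3 were higher and 10 lower, beside 2.18% and 4.01%. With SETDB2-up library 3 alone 0 partner genes were higher and 9 lower by limma, beside 1.13% and 2.17% of all genes. Without SETDB2-up library 1, 2 were higher and 12 lower, where limma called 6.67% of all genes, 2.55% higher and 4.13% lower.

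None of the 8 tested protein kinase C genes, whose products phosphorylate GAP-43 and MARCKS, was called by limma, edgeR, DESeq2 or limma-voom, and 1 was lower by limma at an unadjusted p under 0.05. The smallest p-values among them belonged to Prkch (log2 fold change -0.37 ± 0.14 SE, with adjusted p = 0.0808 by limma) and Prkcq (0.16 ± 0.09 SE, with adjusted p = 0.242 by limma). Of the 10 genes for calmodulin, calcineurin and small IQ-motif proteins, 2 fell. Ppp3ca encodes a catalytic subunit of calcineurin, which dephosphorylates GAP-43. Ppp3ca averaged 10744 ± 274 normalised reads in SETDB2-up and 12912 ± 573 in NC-up (SD, n = 3 each). The difference came to -0.26 ± 0.05 on the log2 scale (SE, with adjusted p = 0.0029 by limma). Calcineurin's further listed genes did not pass the test, namely the catalytic Ppp3cb (0.05) and Ppp3cc (0.04) and the regulatory Ppp3r1 (0.12). Pcp4l1, a small IQ-motif protein, fell by 0.23 ± 0.06 on the log2 scale (SE, with adjusted p = 0.00893 by limma). Ppp3ca passed after both GC corrections, and Pcp4l1 only after the coding correction (-0.21, against -0.17 with the transcript correction).

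Fatty acylation ties these proteins to the membrane, and of its 15 listed genes 2 rose and 4 fell. The 4 that fell encode enzymes that remove palmitate from proteins. Other listed genes for such enzymes, Lypla1 (0.19) and Ppt1 (0.10), did not pass the test. Lypla2 had a log2 fold change of -0.35 (limma adjusted p = 0.0013), Abhd17a of -0.40 (limma adjusted p = 0.00161), Abhd17c of -0.48 (limma adjusted p = 0.00332) and Abhd17b of -0.43 (limma adjusted p = 0.00603). Of these, Abhd17b alone passed after both GC corrections, at -0.65 with the transcript correction and -0.60 with the coding correction. Lypla2 was at -0.08 (limma adjusted p = 0.415) with the transcript correction and at -0.25 with the coding correction, where it passed. Abhd17a passed with neither (-0.03 and -0.19), and Abhd17c was at -0.49 and passed with the transcript correction but not with the coding correction (-0.27). The genes that rose, Zdhhc15 (0.36, limma adjusted p = 0.0156) and Zdhhc17 (0.23, limma adjusted p = 0.0134), encode palmitoyltransferases, and neither passed after a GC correction. Zdhhc15 was at 0.20 with the transcript correction and 0.23 with the coding correction, and Zdhhc17 at 0.08 and 0.06. The other listed palmitoyltransferase genes, Zdhhc2 (0.01), Zdhhc3 (0.07) and Zdhhc7 (-0.15), did not pass the test. Nor did the N-myristoyltransferase genes Nmt1 and Nmt2.

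Of 6 tested genes for RNA-binding proteins that act on Gap43, Marcks or Stmn2 transcripts, 2 rose and 2 fell. Elavl2, a neuronal relative of the stabilising protein HuD, averaged 4226 ± 305 normalised reads in SETDB2-up and 3270.0 ± 281 in NC-up (SD, n = 3 each; log2 fold change 0.37 ± 0.07 SE, with adjusted p = 0.00134 by limma). Khsrp, a decay factor of AU-rich transcripts, had a log2 fold change of -0.26 (limma adjusted p = 0.0146) and Elavl3, another neuronal ELAV protein, of -0.23 (limma adjusted p = 0.0248). Tardbp, which encodes TDP-43, rose by 0.20 on the log2 scale (limma adjusted p = 0.0466), and Masp2 overlaps it on the opposite strand. That call held in 1 of the 6 fits without a library. None of Khsrp, Elavl3 and Tardbp passed after either GC correction, where they were at -0.10, -0.14 and 0.03 with the transcript correction and at -0.06, -0.10 and 0.06 with the coding correction. The Elavl3 call held in 2 of the 6 fits without a library, and Elavl2 was at 0.16 with the transcript correction (limma adjusted p = 0.11) and at 0.24 with the coding correction, where it passed. Elavl4, which encodes HuD, was at 0.02 and did not pass, whereas it was at -0.19 with the transcript correction and passed (limma adjusted p = 0.0401).

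Among 24 tested genes for kinases and phosphatases of stathmins and for regulators of such kinases, 1 rose and 5 fell. Ppp2cb, a catalytic subunit of protein phosphatase 2A, averaged 1202 ± 59.9 normalised reads in SETDB2-up and 1855 ± 145 in NC-up (SD, n = 3 each), with a log2 fold change of -0.62 ± 0.07 (SE, with adjusted p = 1.65e-05 by limma). It was at -0.74 after the coding GC correction, and Ubxn8 overlaps it on the opposite strand. The other catalytic subunit, Ppp2ca, was at -0.27 (limma adjusted p = 0.0064), and at -0.40 after the coding GC correction. Prkaca, a catalytic subunit of protein kinase A, was at -0.30 (limma adjusted p = 0.00478). The other listed catalytic subunit, Prkacb, was at 0.14 and did not pass (limma adjusted p = 0.098). Map2k7, which activates the JNK kinases, was at -0.27 (limma adjusted p = 0.00546). Prkaca and Map2k7 passed after the coding GC correction but not after the transcript correction (-0.20 for Prkaca and -0.14 for Map2k7). Ppp2ca and Ppp2cb passed after both.

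Of 38 genes for growth cone cytoskeleton and adhesion, 5 rose and 7 fell. Evl, an actin-elongating Ena/VASP protein, fell by 0.33 (limma adjusted p = 0.00162) and Crmp1, a collapsin response mediator, by 0.32 on the log2 scale (limma adjusted p = 0.00179). Limk1, which phosphorylates cofilin, was at -0.26 (limma adjusted p = 0.00659), and Map2, a microtubule-associated protein, rose by 0.32 (limma adjusted p = 0.00559). Other listed genes overlap Evl and Crmp1 on the opposite strand. Crmp1 passed after both GC corrections (-0.20 with the transcript correction and -0.21 with the coding correction). Evl was at -0.07 with the transcript correction (limma adjusted p = 0.48) and at -0.23 with the coding correction, where it passed, and Limk1 passed with neither (-0.09 and -0.16). Map2 passed with the transcript correction (0.26) but not with the coding correction (0.20, limma adjusted p = 0.0886). Of 11 tested markers of axon regeneration, the transcription factor gene Jun fell, to 3610.0 normalised reads in SETDB2-up against 4585 in NC-up (log2 fold change -0.35 ± 0.06 SE, with adjusted p = 0.000678 by limma), and it passed after the transcript GC correction (-0.23) but not after the coding GC correction (-0.12). The others did not pass, among them the injury markers Atf3 (-0.12) and Gal (0.37).

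**Figure D5:**
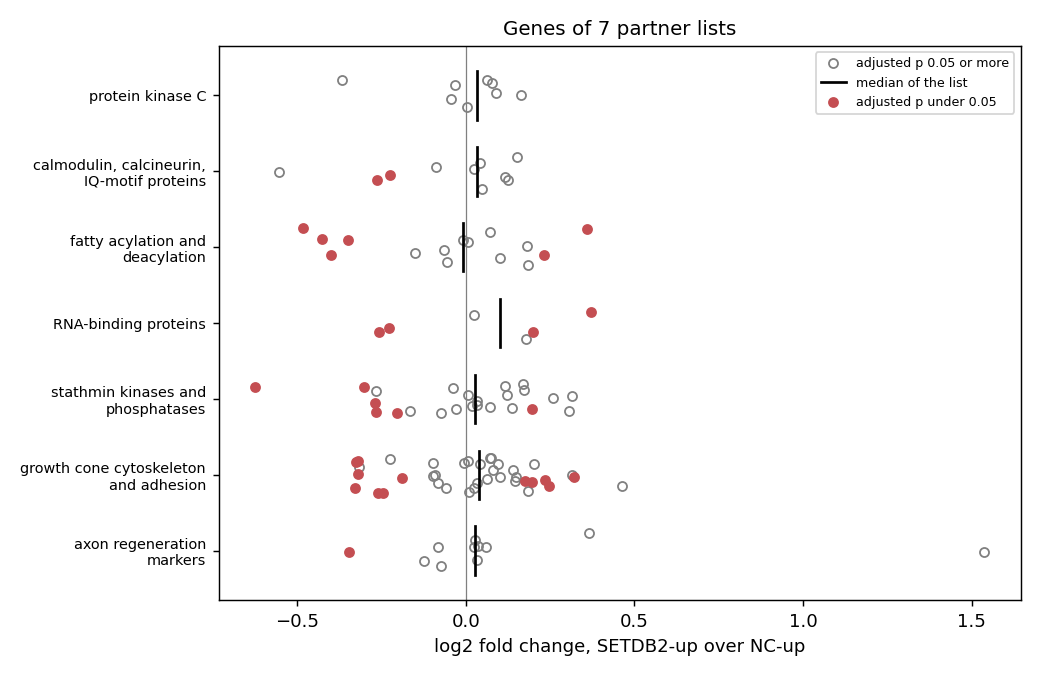
Log2 fold changes, SETDB2-up over NC-up (horizontal axis), of the tested genes of 7 partner lists, with genes at an adjusted p under 0.05 filled in red and each list's median as a black line. The medians lie near 0, and the called genes stand on both sides of 0 in 4 of the 7 lists.

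Of all 11731 genes with a mean of at least 100 normalised reads, those whose profile over the 6 libraries lay closest to each of the 8 were found by the root mean square difference of centred log2 values. Closest to Basp1 were Hnrnpa0, an RNA-binding protein gene (0.0402 log2 units, coding GC content 71.8%), and Vstm2l (0.0451, coding GC content 66.2%), beside a spread of 0.446 for Basp1 itself. Closest to Marcks were Pdap1 (0.0852) and the transcription factor gene Klf4 (0.0933). Marcksl1 was followed most closely by Ndufa1 (0.0741) and Psmb10 (0.0804), and Gap43 by Add3 (0.0152) and Appl2 (0.0227). For the stathmins they were Sdhd (0.0236) and Lbh (0.0271) for Stmn1, Cul1 (0.00719) and Fgfr1op2 (0.0143) for Stmn2, Rpl13a (0.00897) and Npc2 (0.0142) for Stmn3, and Rras (0.0530) and Ephx4 (0.0534) for Stmn4. With 6 libraries such closeness is a description only.

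Markers of the cells that a trigeminal ganglion holds were read beside these values. The 20 sensory neuron markers, led by Nefl, Nefm and Nefh, summed to 532265 to 556464 normalised reads in SETDB2-up and 537153 to 563650.0 in NC-up. Of them 1 was higher (Scn9a) and 3 lower (Elavl3, Rbfox3 and Pou4f1). After the transcript GC correction 2 were higher and 3 lower, and after the coding GC correction 1 was higher and 1 lower. Rbfox3 (-0.38) passed after both, at -0.19 with the transcript correction and -0.25 with the coding correction. Ranges in brackets below are likewise sums over a whole marker list. Over all genes tested, 7.71% were called higher and 8.71% lower. Of 10 satellite glia markers 1 rose and 1 fell (110758 to 131767 in SETDB2-up, 124766 to 129840 in NC-up). Of 9 myelinating Schwann cell markers 4 fell (264578 to 300056 in SETDB2-up, 297910 to 312256 in NC-up), and of 6 fibroblast markers 3 fell (21050.2 to 24693 in SETDB2-up, 24070.1 to 28808 in NC-up). After the transcript GC correction limma called 0 of these Schwann cell markers and 2 of these fibroblast markers lower, beside 4.01% of all genes. After the coding GC correction 1 of each was called lower, beside 3.22% of all genes. Of 6 endothelial markers only Cldn5 was called, and it fell, while Flt1 was at 0.11 and Cdh5 at -0.18. The 6 together summed to 2776 to 2871 in SETDB2-up and 2926 to 3120.2 in NC-up. Of 8 macrophage markers only C1qc was called, and it fell. The 8 together summed to 2216 to 2705 in SETDB2-up and 2537 to 3301 in NC-up. After either GC correction no endothelial or macrophage marker was called. None of 6 cycling cell markers (169.9 to 217 in SETDB2-up, 208 to 223 in NC-up) and none of 8 central nervous tissue markers (14506 to 19780 in SETDB2-up, 16278 to 17969 in NC-up) was called by limma, edgeR, DESeq2 or limma-voom. At an unadjusted limma p under 0.05, 1 cycling cell marker was lower and 0 central nervous tissue markers were called. Of 4 tested pituitary markers only Tshb was called, and it fell. The 4 together summed to 1004, 561 and 3242 in SETDB2-up libraries 1 to 3 and to 1429, 1002 and 2869 in NC-up libraries 1 to 3. For central nervous tissue the sums were 15581, 14506 and 19780 in SETDB2-up and 17520, 16278 and 17969 in NC-up, in the same order. SETDB2-up library 3 thus had the highest sum of both lists. How this bears on the fits with that library alone was not tested. The part that cell make-up has in the values of Basp1, Marcks and Stmn2 was not tested.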

How the data were processed

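Messenger RNA of mouse trigeminal ganglion was sequenced in 6 libraries, 3 labelled SETDB2-up and 3 labelled NC-up, grouped by the labels' titles. The submitters' processing notes name HISAT2, FastQC and the build GRCm38. How reads were counted and scaled, and with which annotation, was not given in the sources used here; per the labels' protocols the libraries were strand-specific, poly(A)-enriched and read as pairs of 150 bp. The deposited values are a normalised signal, read counts divided by 1 factor per library by the authors, as the values show. All of them (100%) were whole multiples of a library's step (tolerance 0.001 read), which gave whole reads. Libraries of a group differed by more than sampling noise.

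The test was limma (3.58.1, R 4.3.3) with a mean-variance trend on log2(value + 1). Genes reaching a value of 1 in 3 or more libraries entered it, 16387 in all (28 were removed), with Benjamini-Hochberg adjustment over all of them. An adjusted p under 0.05 counts as called. Fold changes are SETDB2-up over NC-up on this scale and understate low genes. Alternatives were a pseudocount of 0.1, no filter, edgeR (4.0.16; TMM or RLE factors), DESeq2 (1.42.0) and limma-voom on recovered reads, transcript GC correction, a replicate block, leaving out each library, and leaving out SETDB2-up libraries 1 and 2. The coding GC correction and the protein-coding length were chosen after seeing the data. GC corrections removed a loess trend (span 0.3) from each library, with sequences from GENCODE M21 (15544 genes matched, 14480 with a coding sequence). EdgeR on recovered reads called 2680 genes and limma 2690. RPKM was computed from recovered reads. The fits were tested on simulated data.

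The 8 genes, the partner lists and the markers were chosen with earlier results of these data known. All 8 are named. Of each partner list the up to 4 called genes with the smallest p are named, or 2 where no gene was called, of each marker list up to 3 by level, and the 2 genes closest in profile to each of the 8. A few genes picked by these rules are left unreported here. Other names were chosen after their values were seen. Replicate numbers were not taken as pairing the libraries, because the labels do not say whether they do.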

Additional observations from a re-analysis of the deposited data

How the results depend on the processing

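The log2 fold change of Basp1 kept its direction and its call under all 16 alternatives (-0.94 to -0.42) and that of Marcks kept its direction under all 16 (-1.11 to -0.32) and its call under 15. Stmn2 was called under 9 of 16. The coding GC correction left 783 genes called, 0 members higher and 1 lower, and 3 partner genes higher and 11 lower, with Gap43 at 0.020, Marcks at -0.32 (limma adjusted p = 0.127) and Stmn2 at 0.14. The transcript GC correction left 960 genes called, 3 partner genes higher and 10 lower, with Stmn2 at 0.0030 and Stmn3 at 0.24 (limma adjusted p = 0.0159). The Stmn2 value rests on the GC content of its longest, retained-intron model. By construction these corrections test fewer genes and take out what follows GC content in each library. DESeq2 called 2 members and 16 partner genes higher, with Stmn1 at 0.16. Without SETDB2-up libraries 1 and 2, which leaves 1 library whose spread is assumed to be that of NC-up, 540 genes were called, with 2 members and 0 partner genes higher and 9 partner genes lower. Stmn1 was then at 0.29, Stmn2 at 0.15, Stmn3 at 0.25 and Stmn4 at 0.029, the sign opposite to that with all libraries. Leaving out 1 library at a time gave 1093 (without SETDB2-up library 1) to 3333 (without SETDB2-up library 3) genes called, 0 to 1 members higher and 2 to 4 lower, and 2 to 16 partner genes higher and 12 to 24 lower. Over those 6 fits the log2 fold change ranged from -0.084 to 0.028 in Gap43 (0.022 without NC-up library 1, 0.028 without SETDB2-up library 3), -0.46 to -0.18 in Marcksl1, 0.10 to 0.20 in Stmn1, 0.14 to 0.21 in Stmn2, -0.0030 to 0.14 in Stmn3 (-0.0030 without SETDB2-up library 3) and -0.47 to -0.19 in Stmn4. The number of genes called was also under the 2690 with all libraries by over 1.5 times without NC-up library 2 (1611) and without SETDB2-up library 2 (1573). Per length, Stmn2 was at 416 RPKM in SETDB2-up with the protein-coding length. Where a call or sign differed between settings, the cause was not tested.

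Libraries with the same number had small positive correlations of their deviations from the group means (r = 0.0383, 0.0359 and 0.0484). Pairs with different numbers were at r = -0.0347 to -0.00557. The numbers were not taken as pairing because the labels do not say whether they do, and the small correlations do not settle it. With the replicate number as a block, 3618 genes were called, 2 members higher and 4 lower, and 20 partner genes higher, with Marcksl1 at -0.31 (limma adjusted p = 0.0185), Stmn1 at 0.16 (limma adjusted p = 0.0165) and Stmn4 at -0.31 (limma adjusted p = 0.0167). Each number's own pair correlated best.

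Read depth limits the 8 genes little, since the lowest had 337 recovered reads in a library. With 3 libraries a group, differences near 0.1 to 0.2 on the log2 scale lie close to the spread between libraries, and the adjusted p-values that miss the threshold do not show equal levels.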

Other observations

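The genes with the most GC-rich coding sequences were described beside Basp1 and Marcks, in a choice made after their values were seen. Of the 26 tested genes with a coding GC content of at least 73%, 17 fell and 0 rose by limma, and their median log2 fold change was -0.56. Among them were Trnp1, with a mean of 17586 normalised reads over the 6 libraries (log2 fold change -0.55, limma adjusted p = 2.71e-05), Tmem158 (-0.62, limma adjusted p = 2.08e-05), Dact3 (-0.55, limma adjusted p = 3.1e-05), and the transcription factor genes Foxd1 (-1.05, limma adjusted p = 5.63e-05) and Cebpb (-1.03, limma adjusted p = 0.000288). The gene with the highest coding GC content, Hrk, an activator of apoptosis in neurons (82.4%), was at -0.14 and did not pass the test (limma adjusted p = 0.749). Ppp1r3e (74.3%) was at -0.09 (limma adjusted p = 0.555). With 5 of the 26 as low as Basp1 or lower, Basp1 itself was among the lower values of this range.

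The genes that flank Basp1 and Marcks had values near 0. Within 500000 bp of Basp1 the tested genes were Myo10 (-0.07, limma adjusted p = 0.514) and Retreg1 (-0.00, limma adjusted p = 0.986). Around Marcks they were Hdac2, a histone deacetylase gene (0.12, limma adjusted p = 0.249), and Hs3st5 (0.11, limma adjusted p = 0.466). Of the 30 tested genes within this distance of Marcksl1, 2 rose and 3 fell, and of the 22 around Stmn1, 2 fell. Around Stmn2, 1 of 4 fell. None was called among the 30 around Stmn3, the 8 around Stmn4 and the 2 around Gap43. Over all genes tested, 7.71% were called higher and 8.71% lower.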
